A study of Mus musculus with 35 samples.

Results

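The astrocyte genes described here are 31 genes that mark striatal astrocytes, taken from a count table of striatal RNA by exact match of the gene symbol. All 31 symbols were found among the 32863 genes kept, each in a single row, and all 31 passed the count filter in every comparison. The RNA came from the striata of 35 mice at 21.71 to 23 weeks of age, with 1 library per mouse. The mice carried either 2 wild-type huntingtin alleles (Htt+/+, constitutive CAG length 7) or 1 knock-in allele with an expanded CAG repeat (HttQ111/+, CAG length 110 to 144), and they either kept Hdac2 (written Hdac2+/+ in the labels, Hdac2 WT below) or had lost it in medium-spiny neurons (MSNs; Hdac2D/D in the labels, Hdac2 KO below).

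The 4 groups were Htt+/+ Hdac2 WT (n = 8, 5 males and 3 females), HttQ111/+ Hdac2 WT (n = 7, 4 males and 3 females), Htt+/+ Hdac2 KO (n = 9, 5 males and 4 females) and HttQ111/+ Hdac2 KO (n = 11, 8 males and 3 females). Hdac2 KO mice were homozygous for an Hdac2 allele with exons flanked by loxP sites (floxed) and carried the D9-Cre transgene, in which a genomic fragment of Ppp1r1b (DARPP-32) drives Cre recombinase in MSNs from several weeks after birth. The Hdac2 WT mice carried no Cre and were recorded as floxed on both alleles, except for some Htt+/+ mice with a single floxed allele. Effects of the Cre transgene and of the Hdac2 deletion therefore cannot be told apart in these groups. The knock-in line was on a C57BL/6J background and the floxed line came from a mixed background.

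Astrocytes are the glial cells that take up glutamate and potassium released by neurons, convert glutamate to glutamine, carry water and ions to the blood vessels that their endfeet wrap, and pass small molecules to each other through gap junctions. They also store glycogen, and after injury they often raise the intermediate filament proteins Gfap and Vim. The D9-Cre transgene acts in MSNs, so the astrocytes of the Hdac2 KO mice are taken to keep their own Hdac2, and the question asked of their genes is whether they differ when the neighbouring neurons have lost it or carry the HttQ111 allele. In bulk RNA, fewer astrocytes and less RNA per astrocyte cannot be told apart. Several of the genes are also used by other striatal cells, such as Vim in blood vessels and S100b in oligodendrocytes.

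Hdac2 itself was slightly lower in the Hdac2 KO libraries. The authors reported that reads on its floxed exons were markedly depleted in Hdac2 KO striata. The counts used here cover the whole gene, including the exons outside the deletion, in all cell types of the tissue. Its mean level in CPM, the read count scaled to the library's normalised size, was 103 ± 3.42 (SD, n = 8) for Htt+/+ Hdac2 WT, 105 ± 4.76 (n = 7) for HttQ111/+ Hdac2 WT, 94.4 ± 2.98 (n = 9) in Htt+/+ Hdac2 KO and 95.2 ± 3.45 (n = 11) in HttQ111/+ Hdac2 KO. The average difference was −0.10 ± 0.02 (log2 ± SE, adjusted p = 0.00171, edgeR). It passed in HttQ111/+ mice (−0.12, adjusted p = 0.00198) and not in Htt+/+ mice (−0.09, adjusted p = 0.0552). Library depth ran from 51.4 to 78.2 M counts, of which ERCC spike-ins took 0.372% to 1.32%. HttQ111/+ Hdac2 KO replicates 4 and 7 stood apart from the other libraries in genes that span more than 100 kb, which averaged −0.16 and −0.10 on the log2 scale relative to the mean of the libraries, against −0.04 or more in the other 33. HttQ111/+ Hdac2 WT replicate 7 stood apart in 8 genes of cortical neurons, which summed to 488 CPM there against a median of 57.8 over the libraries, and it had the lowest sum of MSN genes (6455 CPM). Calls that changed without these libraries are given beside the results.

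The 31 genes differed widely in level. Divided by the length of their exons, Glul, which encodes glutamine synthetase, was highest with a mean of 468 CPM per exon kb, followed by Ndrg2 (252), Aldoc (247), Mt3 (130), Mt2 (118), S100b (112) and Mt1 (102). Ndrg2 and Aldoc lay close to each other, as did Mt3 and Mt2, and the order within such neighbours also depends on the exon lengths used. The glutamate transporters Slc1a3 (GLAST) and Slc1a2 (GLT-1) stood at 81.0 and 38.5. Aqp4, the water channel of the endfeet, stood at 19.3, and Gfap, the filament protein most used to stain astrocytes, at 14.2. The lowest were Cbs (3.71), Vim (3.56) and Plcd4 (2.46). Because the authors counted reads over whole gene intervals, intronic reads are in these values, and long genes with large introns are placed somewhat too high on this scale.

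The genes also differed in how much they varied between mice of the same group. Hepacam, a cell adhesion protein that partners Mlc1, and Mlc1 itself, a membrane protein of the endfeet, were the steadiest, with within-group SDs of 0.08 on the log2 CPM scale. Slc25a18, a mitochondrial glutamate carrier, varied most (SD 0.49), followed by Agt, the precursor of angiotensin (0.44), Gfap (0.35) and Gjb6 (0.32), which encodes connexin 30. Slc25a18 ranged from 1.70 to 16.6 CPM over the 35 libraries and Hepacam from 89.6 to 119. The median SD of the 31 genes was 0.16, above the median of 0.11 over 10813 genes at least as abundant as the lowest of them. This spread between mice sets what the comparisons can resolve: standard errors of the fitted log2 changes were 0.03 for Atp1b2 and 0.19 for Slc25a18 in the same contrast.

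Loss of Hdac2 in MSNs was examined first in Htt+/+ mice. Among the 31 genes, Slc7a10 and Atp1b2 rose and Slc1a2 fell in Htt+/+ Hdac2 KO mice relative to Htt+/+ Hdac2 WT mice, each by a small amount, and 28 did not pass the test. These 3 calls are a share below that of all genes, since 17.8% of the 17126 genes tested passed in this contrast. The median log2 change of the 31 genes was 0.01, with 17 above 0 and 14 below, and the median of all genes was −0.0014. Calls throughout are at an adjusted p under 0.05 (edgeR's quasi-likelihood F test with Benjamini-Hochberg adjustment over all genes tested, with 9 surrogate variables as covariates).

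Slc7a10 (chr7:35186385-35204898, plus strand, GRCm38) encodes Asc-1, a carrier for D-serine, glycine and other small neutral amino acids. In Htt+/+ Hdac2 WT its lowest, median and highest values were 17.4, 22.5 and 28.7 CPM. In Htt+/+ Hdac2 KO they were 26.3, 31.2 and 33.9 CPM. In HttQ111/+ Hdac2 WT they were 20.8, 22.7 and 28.2 CPM, and in HttQ111/+ Hdac2 KO 22.3, 29.7 and 33.7 CPM. Both Hdac2 KO groups had medians above the highest Hdac2 WT library of their own Htt genotype, although the ranges of WT and KO overlapped. The fitted change was 0.21 ± 0.06 in Htt+/+ mice (1.16-fold, adjusted p = 0.0167, edgeR) and 0.21 ± 0.06 in HttQ111/+ mice (1.16-fold, adjusted p = 0.00864, edgeR). The interval of Slc7a10 overlaps that of Lrp3 on the opposite strand, a gene at 57.2 CPM that also rose in both contrasts (0.19, adjusted p = 0.000527, and 0.10, adjusted p = 0.0316, edgeR). Whether strand was used in the counting is not given in the sources used here, and the part of shared reads in the change of Slc7a10 was not tested.

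Atp1b2 (chr11:69599736-69605942, minus strand) encodes the beta-2 subunit of the sodium-potassium pump, which astrocytes use in clearing potassium. Its lowest, median and highest values were 334, 351 and 432 CPM in Htt+/+ Hdac2 WT and 383, 426 and 459 CPM in Htt+/+ Hdac2 KO. In HttQ111/+ Hdac2 WT they were 303, 352 and 413 CPM, and in HttQ111/+ Hdac2 KO 317, 394 and 463 CPM. In the Htt+/+ mice 2 of the 8 WT libraries reached the range of the KO libraries, and in the HttQ111/+ mice the ranges overlapped over most of their length. The fitted changes were 0.10 ± 0.03 (adjusted p = 0.0459, edgeR) and 0.09 ± 0.03 (adjusted p = 0.0342, edgeR).

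Slc1a2 (chr2:102658659-102781557, plus strand) encodes GLT-1, the transporter that removes most of the glutamate from the extracellular space. It spans 122.9 kb, of which exons make up 13.1 kb. Its lowest, median and highest values were 508, 547 and 595 CPM in Htt+/+ Hdac2 WT, 434, 496 and 548 CPM in HttQ111/+ Hdac2 WT, 375, 537 and 637 CPM in Htt+/+ Hdac2 KO and 240, 462 and 611 CPM in HttQ111/+ Hdac2 KO. The unadjusted ranges of WT and KO overlapped, and the Htt+/+ KO range enclosed the WT range. The 2 lowest of the 35 values, 240 and 311 CPM, belonged to the 2 libraries that were low in long genes. The fitted change of −0.19 ± 0.06 in Htt+/+ mice (adjusted p = 0.0294, edgeR) and of −0.18 ± 0.05 in HttQ111/+ mice (adjusted p = 0.024, edgeR) became −0.12 (adjusted p = 0.308) and −0.05 (adjusted p = 0.658) without these 2 libraries, and neither then passed the test. Without HttQ111/+ Hdac2 WT replicate 7, the library high in cortical genes, they were −0.14 (adjusted p = 0.124) and −0.16 (adjusted p = 0.0612), and again neither passed. Without surrogate variables the change of Slc1a2 in the average of both backgrounds was −0.06 ± 0.08 (adjusted p = 0.596).

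**Figure D1:**
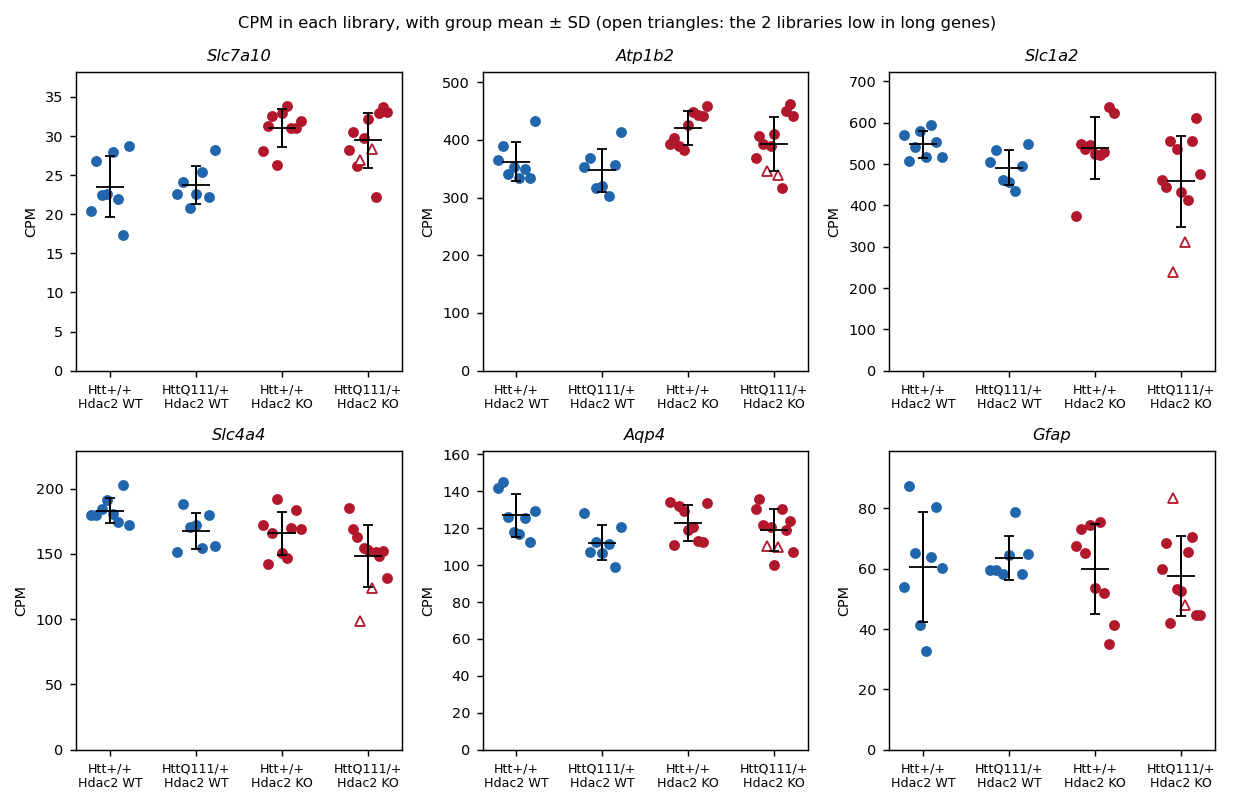
CPM of Slc7a10, Atp1b2, Slc1a2, Slc4a4, Aqp4 and Gfap (vertical axes, linear from 0) in each of the 35 libraries, by group (horizontal axis, Hdac2 WT in blue and Hdac2 KO in red). Black marks are group means ± SD, and open triangles are the 2 libraries low in long genes, which hold the lowest values of Slc1a2 (240 and 311 CPM) and Slc4a4 (98.6 and 124 CPM).

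The second contrast asked the same question in HttQ111/+ mice. The genes called were again Slc7a10 and Atp1b2, higher in HttQ111/+ Hdac2 KO than in HttQ111/+ Hdac2 WT, and Slc1a2, lower. In this contrast 16.5% of the 17169 genes tested passed. The median log2 change was 0.04, with 22 of the 31 genes above 0, and the median of all genes was −0.0044. In the average of both Htt backgrounds 4 of the 31 genes passed, against 25.0% of the 17346 genes tested: Slc7a10 (0.21 ± 0.05, adjusted p = 0.000805), Atp1b2 (0.09 ± 0.02, adjusted p = 0.00471), Slc1a2 (−0.19 ± 0.05, adjusted p = 0.00234) and Slc4a4 (−0.12 ± 0.04, adjusted p = 0.0383; edgeR). The first and second contrasts do not compare the same libraries, while the average is built from both. All 35 libraries enter each fit, with its surrogate variables and spread, so the first and second contrasts are not independent. Without the 2 libraries low in long genes Slc7a10, Atp1b2 and Fgfr3 passed in the second contrast, all higher, and the median was 0.07, with 26 above 0. In the average 4 genes passed, all higher: Slc7a10, Atp1b2, Mlc1 and Fgfr3. Without the library high in cortical genes Mlc1 passed in place of Slc1a2 in the first contrast, Slc4a4 in place of Slc1a2 in the second, and Mlc1 and Slc25a18 beside the other 4 in the average.

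Slc4a4 (chr5:88886818-89235794, plus strand, 349 kb) encodes the sodium bicarbonate cotransporter NBCe1. Its lowest, median and highest values were 173, 180 and 203 CPM in Htt+/+ Hdac2 WT, 151, 171 and 188 CPM in HttQ111/+ Hdac2 WT, 142, 169 and 192 CPM in Htt+/+ Hdac2 KO and 98.6, 152 and 186 CPM in HttQ111/+ Hdac2 KO. The medians were lower from each group to the next in this list, and neighbouring groups overlapped. The change passed the test in neither single contrast (−0.11 ± 0.06, adjusted p = 0.209, and −0.14 ± 0.05, adjusted p = 0.0642, edgeR), although DESeq2 called Slc4a4 in HttQ111/+ mice and the fit on only the 2 groups compared called it in both contrasts. Without the 2 libraries low in long genes the average became −0.07 (adjusted p = 0.312, edgeR). The other members that span more than 100 kb, Bmpr1b (332 kb), a receptor for bone morphogenetic proteins, and Aldh1l1 (113 kb), a folate enzyme widely used as an astrocyte marker, had average changes of −0.0090 ± 0.04 and 0.05 ± 0.04, and neither passed the test.

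By role, the 6 genes for glutamate and amino acids held 1 call up (Slc7a10) and 1 down (Slc1a2) in each Hdac2 contrast. Slc1a3 changed by 0.00093 ± 0.04 and −0.01 ± 0.04, and Glul by 0.04 ± 0.04 and 0.07 ± 0.04. The 95% interval of Slc1a3 in Htt+/+ mice was −0.08 to 0.08 by a normal approximation, which is somewhat narrower than the F test implies. Slc25a18 had the largest fitted rise of the 31 genes in both contrasts, 0.28 ± 0.19 (adjusted p = 0.368) and 0.25 ± 0.17 (adjusted p = 0.372), and did not pass. Its lowest, median and highest values were 1.70, 4.71 and 11.9 CPM in Htt+/+ Hdac2 WT, 3.35, 6.34 and 13.5 CPM in HttQ111/+ Hdac2 WT, 5.57, 9.64 and 16.6 CPM in Htt+/+ Hdac2 KO and 5.84, 10.2 and 12.9 CPM in HttQ111/+ Hdac2 KO. Both KO medians were above both WT medians, with overlap in every pair of groups. Cbs, which makes cystathionine from homocysteine and serine, changed by 0.02 ± 0.07 and 0.11 ± 0.06.

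Of the 8 genes for water and ion transport, gap junctions and the perivascular membrane, Atp1b2 was the sole call in the first and second contrasts. The connexin genes Gja1 (connexin 43) and Gjb6 changed by −0.02 ± 0.05 and 0.06 ± 0.10 in Htt+/+ mice, and by 0.04 ± 0.04 and 0.08 ± 0.09 in HttQ111/+ mice. Mlc1 and Hepacam had small positive values in both contrasts, between 0.04 and 0.08. Cldn10, a claudin, had −0.15 ± 0.07 in Htt+/+ mice (adjusted p = 0.167) and −0.02 ± 0.06 in HttQ111/+ mice.

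Gfap had the largest fitted fall of the 31 genes in both Hdac2 contrasts, −0.32 ± 0.14 (adjusted p = 0.13) and −0.21 ± 0.13 (adjusted p = 0.319), and did not pass in either. Its lowest, median and highest values were 32.6, 62.1 and 87.3 CPM in Htt+/+ Hdac2 WT, 58.2, 59.7 and 78.7 CPM in HttQ111/+ Hdac2 WT, 35.0, 65.4 and 75.6 CPM in Htt+/+ Hdac2 KO and 41.9, 53.3 and 83.4 CPM in HttQ111/+ Hdac2 KO. All 4 ranges overlapped, and the group means in CPM lay between 57.6 and 63.4. Without surrogate variables the average Hdac2 KO change of Gfap was −0.08 ± 0.11. Vim changed by 0.02 ± 0.08 and 0.08 ± 0.07, and S100b, a calcium-binding protein, by 0.09 ± 0.08 and 0.13 ± 0.07.

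The 3 metabolic genes (Aldoc, Aldh1l1 and Ppp1r3c) and the 8 genes for receptors, signalling and transcription held no call in either Hdac2 contrast, with 0 and 1 of them at an unadjusted p under 0.05 in the second. DESeq2 also called none of these 11 genes, while Fgfr3 passed in HttQ111/+ mice without the 2 libraries low in long genes. The fit on only the 2 groups compared called Fgfr3 in both contrasts and Ppp1r3c in Htt+/+ mice. Fgfr3 also passed in Htt+/+ mice without surrogate variables (0.29). It did so too with sex, the replicate number or the ID series (the first letter of the mouse identifier) in their place. Aldoc, a glycolytic aldolase of astrocytes, had −0.0039 ± 0.05 and 0.02 ± 0.04, and Ppp1r3c, which targets a phosphatase to glycogen, had −0.09 ± 0.06 and 0.02 ± 0.06. Fgfr3, a fibroblast growth factor receptor, had 0.07 ± 0.05 and 0.11 ± 0.05 (adjusted p = 0.476 and 0.115). Sox9, a transcription factor that specifies glia, had −0.01 ± 0.08 and 0.04 ± 0.07. The 8 signalling genes together ran from −0.11 (Agt) to 0.07 in Htt+/+ mice and from −0.02 to 0.11 in HttQ111/+ mice. Among them Ndrg2, a stress-response gene abundant in astrocytes, had 0.06 ± 0.06 and 0.06 ± 0.05, and Plcd4, a phospholipase C, had 0.02 ± 0.09 and 0.02 ± 0.08.

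**Figure D2:**
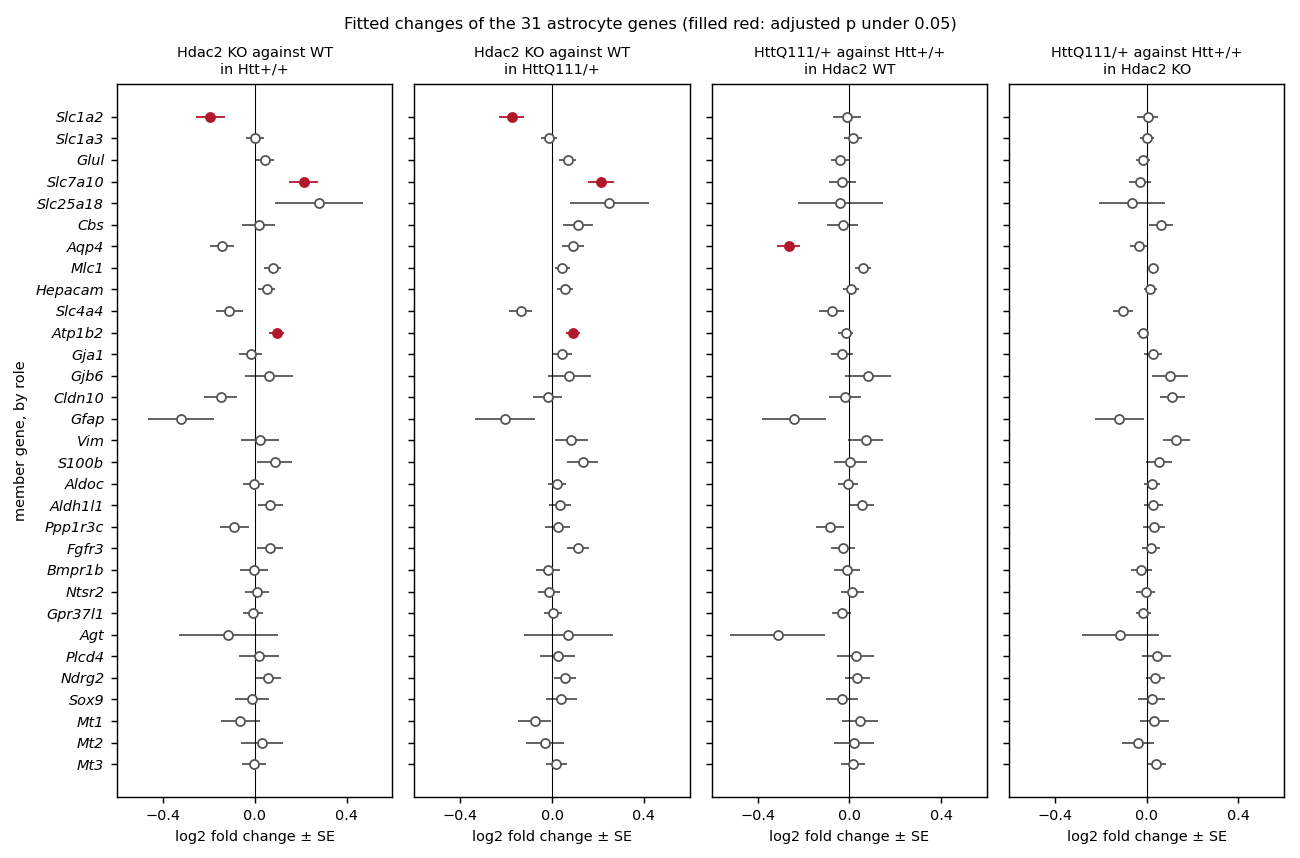
Fitted log2 fold changes ± SE (horizontal axes) of the 31 genes, ordered by role (vertical axis), in the 4 contrasts between groups. Filled red points passed an adjusted p of 0.05: Slc7a10, Atp1b2 and Slc1a2 in both Hdac2 contrasts and Aqp4 in the contrast of HttQ111/+ with Htt+/+ in Hdac2 WT mice.

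The HttQ111 allele was examined in Hdac2 WT mice. Aqp4 was lower in HttQ111/+ Hdac2 WT than in Htt+/+ Hdac2 WT, and the other 30 genes did not pass, against 0.403% of the 17133 genes tested. The median log2 change of the 31 genes was −0.01, with 13 above 0 and 18 below, and that of all genes was 0.0019. Without surrogate variables the median was −0.05 with 7 above 0, and with the ID series in their place −0.09 with 5 above 0. Aqp4 lies on chromosome 18 and spans 14.3 kb. Its lowest, median and highest values were 112, 126 and 145 CPM in Htt+/+ Hdac2 WT and 99.1, 111 and 128 CPM in HttQ111/+ Hdac2 WT. In Htt+/+ Hdac2 KO they were 111, 121 and 134 CPM, and in HttQ111/+ Hdac2 KO 100, 120 and 136 CPM. The Hdac2 WT groups overlapped between 112 and 128 CPM, and the range of Htt+/+ Hdac2 KO lay inside that of HttQ111/+ Hdac2 KO.

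The fitted change of Aqp4 in this contrast was −0.26 ± 0.05 (adjusted p = 0.0122, edgeR), and −0.27 (adjusted p = 0.0249) without the library high in cortical genes. It did not pass without surrogate variables (−0.18, adjusted p = 0.187), nor with sex, extraction date or the replicate number in their place or with only the libraries of the 2 groups (adjusted p = 0.0935 to 0.195). Within each ID series, the letter with which the mouse identifiers begin, the plain difference of mean log2 CPM was −0.29 (series A, 2 against 2 libraries), −0.12 (series V, 3 against 5) and −0.24 (series Z, 2 against 1). Within the 3 extraction days that held both groups it was −0.37, −0.07 and −0.14. The lowest estimate among the 31 genes was that of Agt (−0.31 ± 0.21, unadjusted p = 0.139, edgeR), and the highest that of Gjb6 (0.08 ± 0.10, adjusted p = 0.841). For both genes the unadjusted group means ran the other way. The group means of Agt in CPM were 8.23 ± 4.60 (SD, n = 8) for Htt+/+ Hdac2 WT, 8.66 ± 2.12 (n = 7) in HttQ111/+ Hdac2 WT, 11.4 ± 2.64 (n = 9) in Htt+/+ Hdac2 KO and 11.4 ± 3.31 (n = 11) in HttQ111/+ Hdac2 KO. The means of Gjb6 were 30.0 ± 8.25 without the HttQ111 allele and 29.2 ± 7.08 with it in the Hdac2 WT groups. These differences are smaller than the spread within groups.

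The same allele in Hdac2 KO mice gave no call among the 31 genes, where 1 of all 17110 genes passed (0.00584%). At an unadjusted p under 0.05 stood 3 of the 31 genes, Vim (0.13 ± 0.06, adjusted p = 0.645), Cldn10 (0.11 ± 0.05, adjusted p = 0.652) and Slc4a4 (−0.10 ± 0.04, adjusted p = 0.566), and DESeq2 called 0 of the 31. Aqp4 had −0.03 ± 0.04 (adjusted p = 0.914). Gfap had the largest fitted fall, −0.12 ± 0.11 (adjusted p = 0.869). In the average of both Hdac2 backgrounds Aqp4 was the sole call (−0.15 ± 0.03, adjusted p = 0.0181, edgeR), against 1.27% of the 17346 genes tested. It did not pass without surrogate variables or with sex, extraction date or the replicate number in their place (adjusted p = 0.111 to 0.194).

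Whether the effect of 1 genotype depended on the other was tested with the interaction term. None of the 31 genes passed, and 0.00577% of all genes did. Aqp4 was the sole member at an unadjusted p under 0.05 (0.22 ± 0.06, unadjusted p = 0.0015, adjusted p = 0.549, edgeR), and DESeq2 called 0 members. The loss of Hdac2 went with −0.14 ± 0.05 for Aqp4 in Htt+/+ mice (adjusted p = 0.0595) and with 0.09 ± 0.05 in HttQ111/+ mice (adjusted p = 0.212), so neither passed with edgeR, although DESeq2 called the former. The difference between them was not past the adjusted threshold with either tool. The interaction estimate for Slc7a10 was −2.0e-06. No interval is given for it, since the standard error was derived from the estimate and the F statistic, which is unreliable this close to 0.

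The calls differed with the surrogate variables, which svaseq estimates from the counts to take up variation other than genotype. Without them 11 of the 31 genes passed in the average Hdac2 KO effect, 10 higher and 1 lower, where 31.8% of all genes passed. The 10 were Slc7a10 (0.36 ± 0.06, adjusted p = 9.69e-06), Mlc1 (0.16 ± 0.03), Cbs (0.23 ± 0.05), Atp1b2 (0.20 ± 0.05), Fgfr3 (0.24 ± 0.06), Hepacam (0.11 ± 0.03), Slc25a18 (0.72 ± 0.18), Gja1 (0.11 ± 0.04), Ndrg2 (0.12 ± 0.04) and Agt (0.43 ± 0.16), and the lower gene was Slc4a4 (−0.16 ± 0.05). The median change of the 31 genes was then 0.11, with 25 above 0, against 0.0072 for all genes. With the surrogate variables the corresponding median was 0.01. Slc7a10 and Atp1b2 were called both with and without them in this average, and so was Slc4a4 in the other direction.

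**Figure D3:**
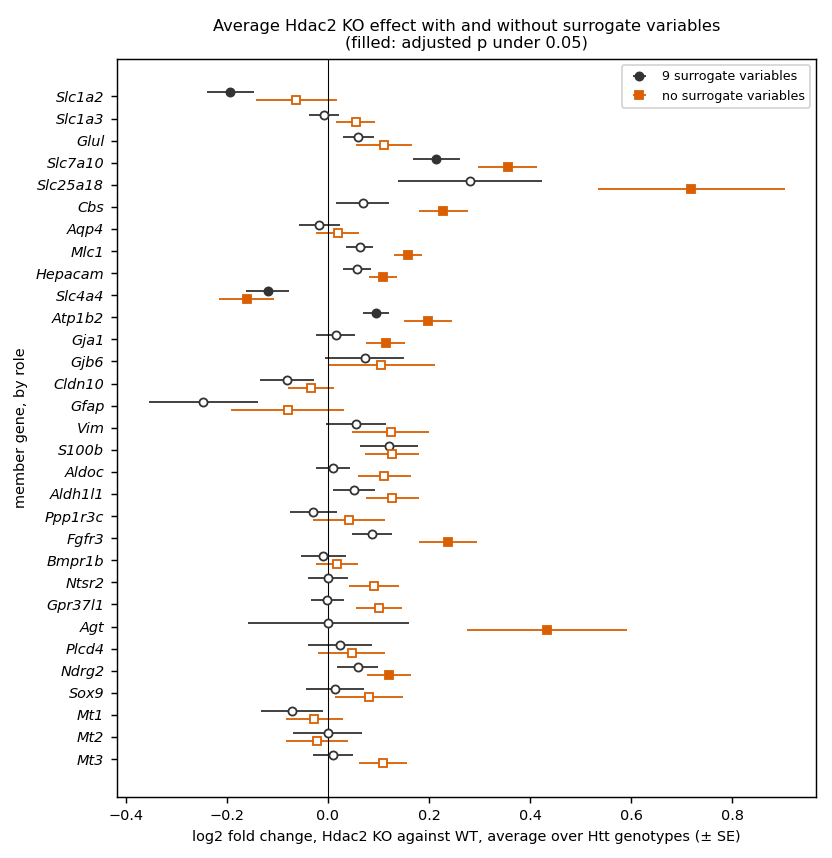
Average Hdac2 KO effect on each of the 31 genes as a log2 fold change ± SE (horizontal axis), fitted with 9 surrogate variables (black circles) and with none (orange squares). Filled symbols passed an adjusted p of 0.05, which 4 genes did with the surrogate variables and 11 without. The median over the 31 genes was 0.01 with them and 0.11 without.

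Extraction day and Hdac2 genotype were nearly confounded: 2 of the 6 extraction days held libraries of both Hdac2 genotypes, each with a single library of the rarer one. With extraction day in place of the surrogate variables, no member passed in the second contrast or in the average, and Slc25a18 alone passed in the first. The median of the 31 genes in the average was then 0.18, with 29 above 0, where 4.62% of all genes passed. The ID series were spread over all 4 groups, but within the HttQ111/+ mice they followed repeat length, with 131 to 144 CAGs in series V and 110 to 118 in series A and Z, so series and repeat length cannot be told apart there. Within them the KO minus WT difference of mean log2 CPM for Slc7a10 was 0.25, 0.41 and 0.16 in Htt+/+ mice (series A, V and Z) and 0.27, 0.27 and 0.40 in HttQ111/+ mice. For Atp1b2 it was 0.06, 0.20 and 0.04, and 0.11, 0.20 and 0.23, so both genes were higher in KO in all 6 comparisons. Slc1a2 gave −0.52, −0.03 and 0.13, and −0.10, −0.27 and 0.06, which differ in sign. Slc4a4 gave −0.06, −0.17 and −0.08, and 0.03, −0.30 and −0.22. Each of these differences rests on 1 to 5 libraries a group. On the extraction day shared in HttQ111/+ mice (1 KO against 2 WT libraries) Slc7a10 differed by 0.16, Atp1b2 by 0.02, Slc1a2 by −0.12 and Slc4a4 by 0.18. There the KO library was of series A and the WT libraries of series V and Z, the latter being the library high in cortical genes. On that shared in Htt+/+ mice (1 against 3) the differences were 0.50, 0.40, 0.13 and −0.12, where the KO library was of series Z and the 3 WT libraries of series V.

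The CPM of the 31 genes were also summed in each library. The sum was 6771 ± 481 (SD, n = 8) in Htt+/+ Hdac2 WT, 6452 ± 614 (n = 7) in HttQ111/+ Hdac2 WT, 7231 ± 558 (n = 9) in Htt+/+ Hdac2 KO and 6824 ± 523 (n = 11) in HttQ111/+ Hdac2 KO, and Glul, Ndrg2, Aldoc, Slc1a3 and Slc1a2 make up most of it. The groups overlapped widely, and the means furthest apart were those of HttQ111/+ Hdac2 WT and Htt+/+ Hdac2 KO. The ID series differed as much: 6866 ± 221 CPM in series A (n = 8), 6424 ± 377 in series V (n = 16) and 7434 ± 496 in series Z (n = 11). Series Z made up 5 of the 9 Htt+/+ Hdac2 KO libraries and 1 of the 8 Htt+/+ Hdac2 WT libraries, and its part in the group means was not tested.

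**Figure D4:**
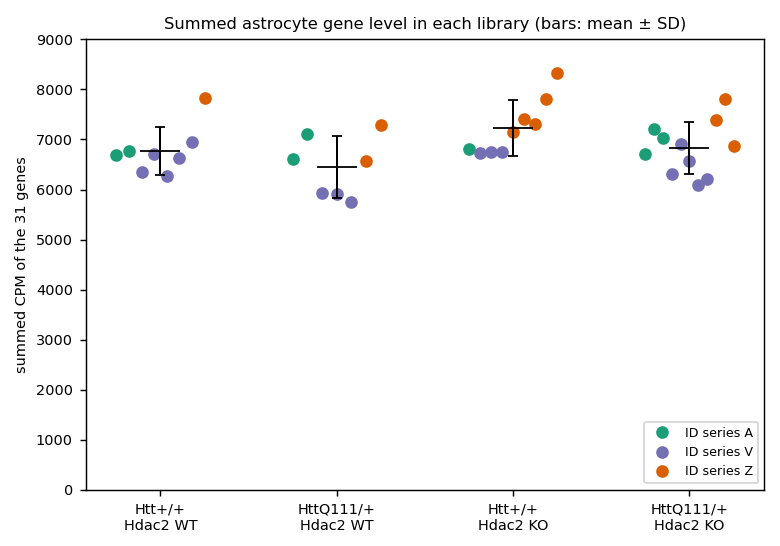
Summed CPM of the 31 genes (vertical axis, linear from 0) in each library, by group (horizontal axis), coloured by ID series, with black marks for group means ± SD. Libraries of series Z (mean 7434 CPM) lie mostly above those of series V (mean 6424 CPM) within each group.

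Markers of several other nonneuronal cells varied with these genes between mice. Over the 35 libraries, with group means removed, the mean log2 level of the 31 genes correlated with that of 45 other astrocyte-enriched genes (Pearson's r = 0.92, Spearman's rho = 0.90), of 12 endothelial and mural genes (r = 0.77, rho = 0.76), of 10 microglial genes (r = 0.66, rho = 0.64) and of 6 oligodendrocyte precursor genes (r = 0.60, rho = 0.60). It was weaker for 10 oligodendrocyte genes (r = 0.33, rho = 0.32) and near 0 for 11 MSN genes (r = 0.10, rho = 0.12), and it was negative for ependymal (r = −0.20, rho = −0.25) and choroid plexus genes (r = −0.23, rho = −0.24). Within the ID series the correlation was 0.87, 0.81 and 0.88 for the other astrocyte genes, 0.56, 0.54 and 0.46 for endothelial genes, 0.58, 0.52 and 0.61 for microglial genes, and 0.74, 0.21 and 0.37 for precursor genes. The list of reactive astrocyte genes described below gave r = 0.65 and rho = 0.66, with 0.65, 0.26 and 0.41 within the series. The summed endothelial level ranged from 475 to 628 CPM in Htt+/+ Hdac2 WT, 451 to 582 in HttQ111/+ Hdac2 WT, 505 to 698 in Htt+/+ Hdac2 KO and 472 to 640 in HttQ111/+ Hdac2 KO, and the microglial level from 573 to 718, 583 to 689, 674 to 797 and 595 to 764 CPM. The part of a changed share of nonneuronal cells in these values was not tested.

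Across mice of the same group, many of the 31 genes varied together. Over the 465 pairs of genes the median correlation of group-centred log2 CPM was 0.25, with 161 positive and 3 negative pairs past an adjusted p of 0.05 (permutation test with 100000 permutations, adjusted over the 465 pairs). Group means alone were removed and the permutations ran over all 35 libraries, so differences between the ID series enter these values. Among the highest pairs were Aldoc and Ntsr2, a neurotensin receptor of astrocytes (r = 0.93, rho = 0.89, permutation p = 1e-05 for both, the smallest the permutations can give, adjusted p = 0.000116 for r, n = 35). Without the 2 libraries farthest from the median r was 0.91, and within the ID series it was 0.80, 0.76 and 0.92. Ntsr2, Aldoc, Atp1b2 and Gpr37l1, a receptor of glial cells, had the highest median correlations with the other members (0.50 to 0.52).

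Gfap, Vim and Sox9 did not share this common variation, and Slc4a4 had a median correlation near 0 (−0.0050). Their median correlations with the other members were −0.13, −0.05 and −0.17, and Gfap was negatively correlated with 24 of the other 30. Gfap and Vim correlated with each other at r = 0.35 (rho = 0.36, permutation p = 0.0413 and 0.0343, adjusted p = 0.0994 for r), which did not pass, and within the ID series r was −0.25, 0.73 and −0.04. Sox9 ran against Gjb6 (r = −0.70, rho = −0.67, permutation p = 2e-05 and 3e-05, adjusted p = 0.000179 for r), with −0.65 without the 2 farthest libraries and −0.66, −0.57 and −0.88 within the series. It also ran against Glul (r = −0.66, rho = −0.65, permutation p = 3e-05 for both, adjusted p = 0.000245 for r), with −0.65 without the 2 farthest libraries and −0.77, −0.71 and −0.66 within the series. These pairs were picked after the values were seen.

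The glutamate transporter genes Slc1a2 and Slc1a3 correlated at r = 0.73 (rho = 0.77, permutation p = 1e-05, adjusted p = 0.000116 for r), at 0.68 without the 2 libraries low in long genes, and at 0.72, 0.71 and 0.65 within the series. Slc1a2 and Slc4a4 correlated at r = 0.56 (rho = 0.34, permutation p = 0.00147 and 0.044, adjusted p = 0.00627 for r), which became 0.16 without those 2 libraries, both of series V, so the pooled relation rests on them. Within the series it was 0.21, 0.81 and 0.49. The paired connexins Gja1 and Gjb6 had r = 0.04 (rho = 0.05, permutation p = 0.821 and 0.78, adjusted p = 0.88 for r).

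**Figure D5:**
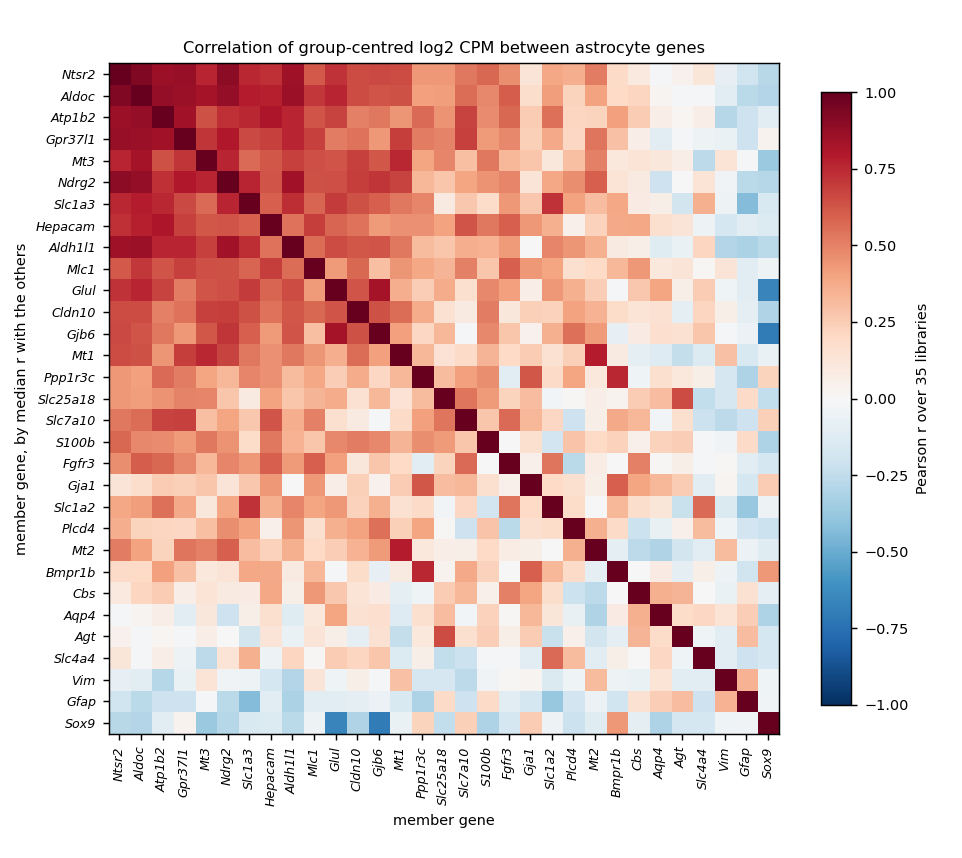
Pearson correlation over the 35 libraries of log2 CPM with group means removed (colour, −1 to 1) between each pair of the 31 genes, ordered on both axes by their median correlation with the others. The block at the upper left, led by Ntsr2 and Aldoc (r = 0.93), varies together, while Vim, Gfap and Sox9 at the end have medians near or below 0, with the lowest value, −0.70, for Sox9 and Gjb6.

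The metallothioneins are small cysteine-rich proteins that bind zinc and copper. Mt1 and Mt2 are induced by metals through the factor MTF-1, which binds metal response elements, while Mt3 is the brain form and is known for responding little to metals. The 3 genes lie in a row on the plus strand of chromosome 8, with starts at 94152607 (Mt3), 94172618 (Mt2) and 94179089 (Mt1) in GRCm38, within 27.7 kb, and Mt1 starts 6.47 kb after Mt2. The 250 bases before each annotated start are shown because the genes varied together between mice. They come from RefSeq (GRCm38.p6), and capitals mark matches to the metal response element core, TGCACNC or TGCGCNC, on either strand.
Mt1 (chr8:94178839-94179088): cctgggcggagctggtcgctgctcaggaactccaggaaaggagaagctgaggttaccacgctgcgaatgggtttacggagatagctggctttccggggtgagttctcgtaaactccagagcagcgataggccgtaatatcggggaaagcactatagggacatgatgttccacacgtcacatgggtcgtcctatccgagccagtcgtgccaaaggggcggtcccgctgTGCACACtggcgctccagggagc
Mt2 (chr8:94172368-94172617): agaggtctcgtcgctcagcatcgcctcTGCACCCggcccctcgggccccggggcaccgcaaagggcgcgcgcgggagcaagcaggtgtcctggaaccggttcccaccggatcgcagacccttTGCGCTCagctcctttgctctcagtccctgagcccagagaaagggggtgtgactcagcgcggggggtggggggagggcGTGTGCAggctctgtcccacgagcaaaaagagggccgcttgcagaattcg
Mt3 (chr8:94152357-94152606): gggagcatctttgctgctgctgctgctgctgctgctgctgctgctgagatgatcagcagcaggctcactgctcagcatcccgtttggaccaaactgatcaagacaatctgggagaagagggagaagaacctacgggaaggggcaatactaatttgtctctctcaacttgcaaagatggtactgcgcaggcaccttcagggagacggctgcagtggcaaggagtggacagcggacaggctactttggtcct

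The Mt2 window held 3 matches, of which that in capitals nearest the start lies on the minus strand, the Mt1 window held 1 and the Mt3 window 0. Each window ends at the annotated start, and bases after it were not searched. The counts therefore describe the windows and do not give the number of metal response elements in each promoter. A match was found in 21.4% of 32851 RefSeq windows of the same length, and 3 or more in 1.26%. Mt1 and Mt2 correlated at r = 0.78 between mice of a group (rho = 0.80, permutation p = 1e-05 for both, adjusted p = 0.000116 for r, n = 35), with 0.75 without the 2 farthest libraries and 0.94, 0.81 and 0.70 within the ID series. Mt3 correlated with Mt1 (r = 0.75, rho = 0.75, permutation p = 1e-05, adjusted p = 0.000116 for r), with 0.74 without the 2 farthest libraries and 0.45, 0.75 and 0.76 within the series. Mt3 correlated as closely with members outside the cluster, such as Aldoc (r = 0.84) and Ntsr2 (r = 0.76), and no relation between motif matches and these correlations was tested. None of the 3 genes passed in any comparison. In the Hdac2 contrasts Mt1 had −0.06 ± 0.08 and −0.08 ± 0.07, Mt2 0.03 ± 0.09 and −0.03 ± 0.08, and Mt3 −0.0038 ± 0.05 and 0.02 ± 0.05. The group means of Mt1 in CPM lay between 124 ± 17.3 (SD, n = 7), in HttQ111/+ Hdac2 WT, and 133 ± 13.6 (n = 8), in Htt+/+ Hdac2 WT.

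Sex was recorded for every mouse, and the 13 females were compared with the 22 males within groups, without surrogate variables. None of the 31 genes passed, against 0.0807% of all genes, and DESeq2 called 0 of them. At an unadjusted p under 0.05 stood 6 genes, all higher in females: Fgfr3 (0.13 ± 0.06), Ntsr2 (0.11 ± 0.05), Gpr37l1 (0.10 ± 0.04), Aldoc (0.11 ± 0.05), Atp1b2 (0.10 ± 0.05) and Glul (0.11 ± 0.05), with adjusted p between 0.517 and 0.585 (edgeR). The median difference of the 31 genes was 0.06, with 22 higher in females, and that of all genes was 0.00027. Glul averaged 1633 ± 226 CPM (SD, n = 13) in females and 1507 ± 154 (n = 22) in males. The sexes were spread unevenly over the ID series. Series Z held a larger share of the females than of the males, and series V the reverse. The summed level of the 31 genes averaged 7434 CPM in series Z and 6424 CPM in series V. The part of the ID series in the sex differences was not tested.

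Other astrocyte-enriched genes were examined as a second list of 46 genes, of which 45 were tested. In Htt+/+ mice 5 rose and 1 fell with Hdac2 KO, and in HttQ111/+ mice 5 rose and none fell, which are smaller shares than the 17.8% and 16.5% of all genes called. The list medians were −0.0062 and 0.03. Cxcl14, a chemokine, rose in both (0.21 ± 0.06, adjusted p = 0.0118, and 0.40 ± 0.05, adjusted p = 1.18e-06, edgeR). Its group means in CPM were 66.0 ± 10.9 (SD, n = 8) for Htt+/+ Hdac2 WT, 61.4 ± 8.42 (n = 7) in HttQ111/+ Hdac2 WT, 84.1 ± 13.6 (n = 9) in Htt+/+ Hdac2 KO and 83.8 ± 9.52 (n = 11) in HttQ111/+ Hdac2 KO. In the average of both backgrounds 9 rose and 1 fell, again a smaller share than the 25.0% of all genes. Among the rises was Fabp7, a brain fatty acid-binding protein (0.36 ± 0.10, adjusted p = 0.0101). The gene with the fitted fall was Apoe, the main lipid carrier made by astrocytes (−0.09 ± 0.03, adjusted p = 0.0154). The unadjusted group means of Apoe ran the other way, higher in Hdac2 KO than in Hdac2 WT in both Htt backgrounds. Lcat, a cholesterol-esterifying enzyme, was the gene that fell in Htt+/+ mice (−0.25 ± 0.07, adjusted p = 0.0161), although its unadjusted group means of 11.5 CPM in Htt+/+ Hdac2 WT and 12.1 CPM in Htt+/+ Hdac2 KO ran the other way.

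With the HttQ111 allele, Cyp4f14, a cytochrome P450, was the sole gene of this list past the threshold in Hdac2 WT mice (0.47 ± 0.11, adjusted p = 0.0405, edgeR), where 0.403% of all genes passed, and 0 of 45 passed in Hdac2 KO mice, where 7 had an unadjusted p under 0.05. Its group means in CPM, 9.47 ± 2.71 (SD, n = 8) without the HttQ111 allele and 9.98 ± 1.36 (n = 7) with it, differed by less than their spread before adjustment. Without the 2 libraries low in long genes Cyp4f14 no longer passed in this contrast.

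A list of 37 genes of reactive astrocytes held 5 rises and 1 fall among 30 tested in Htt+/+ mice with Hdac2 KO, and 4 rises and 1 fall among 31 tested in HttQ111/+ mice, shares near the 17.8% and 16.5% of all genes, with list medians of −0.03 and −0.04. Clcf1, a cytokine of the interleukin-6 family, rose most (1.98 ± 0.27, adjusted p = 3.13e-06, and 1.73 ± 0.23, adjusted p = 2.88e-06, edgeR), from means of 0.445 and 0.603 CPM in the Hdac2 WT groups to 1.79 and 2.13 CPM in the Hdac2 KO groups. Fkbp5, a cochaperone that glucocorticoids induce, rose in both (0.46 ± 0.06, adjusted p = 5.33e-06, and 0.47 ± 0.06, adjusted p = 6.61e-07). Neither gene is restricted to astrocytes, and the cells in which they changed cannot be told from bulk RNA. Stat3, a transcription factor that acts in reactive astrocytes and many other cells, named here after its values were seen, also rose in both (0.27 ± 0.04 and 0.16 ± 0.04), while Gfap and Vim did not pass.

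Fbln5, an extracellular matrix protein, fell in Htt+/+ mice (−0.43 ± 0.12, adjusted p = 0.0131). Serpina3n, a protease inhibitor raised in many reactive states, fell in HttQ111/+ mice (−1.52 ± 0.46, adjusted p = 0.0214, edgeR). Its medians were 4.88 CPM in Htt+/+ Hdac2 WT, 6.14 in HttQ111/+ Hdac2 WT, 5.14 in Htt+/+ Hdac2 KO and 5.39 in HttQ111/+ Hdac2 KO, while the highest libraries reached 37.5, 49.3, 39.0 and 38.7 CPM, so a few high libraries in each group carry its mean. The HttQ111 allele gave 0 calls in this list in either Hdac2 background, with 4 genes at an unadjusted p under 0.05 in each, and H2-T23, a major histocompatibility gene, passed in the average (0.23 ± 0.06, adjusted p = 0.0467) but neither without the 2 libraries low in long genes nor without the library high in cortical genes.

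Lists for other striatal cells were counted in the same fits, in which 17.8% and 16.5% of all genes passed in the Hdac2 contrasts, 0.403% with the HttQ111 allele in Hdac2 WT mice and 1.27% in the average HttQ111 effect. Of 11 MSN genes tested, 5 fell with the HttQ111 allele in Hdac2 WT mice, led by Penk (−0.49 ± 0.10, adjusted p = 0.0177), and 7 in the average of both backgrounds. With Hdac2 KO, 2 MSN genes rose and 2 fell in Htt+/+ mice, and 2 rose in HttQ111/+ mice. None of the 10 oligodendrocyte, 6 precursor, 10 microglial or 5 ependymal genes tested passed in any of the 4 contrasts, where up to 4 genes of a list had an unadjusted p under 0.05. Of 12 endothelial and mural genes 1 rose with Hdac2 KO in Htt+/+ mice. Among choroid plexus genes Clic6 rose in both Hdac2 contrasts (0.39 ± 0.10 and 0.37 ± 0.09) and Ttr fell in Htt+/+ mice (−3.12 ± 1.05, adjusted p = 0.0359), with values from 0.234 to 171 CPM in Htt+/+ Hdac2 WT and from 0.758 to 14.7 CPM in Htt+/+ Hdac2 KO, and among cortical genes Cux2 rose in Htt+/+ mice (0.44 ± 0.12, adjusted p = 0.00731).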

How the data were processed

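RNA-seq counts were analysed from the striata of 35 mice in 4 genotype groups. Group, sex, extraction date and the letter that begins the mouse identifier came from the labels. The deposited values were raw counts per gene, made by the authors with GSNAP on GRCm38 and bedtools over whole Ensembl gene intervals, introns included, from unique alignments. Strand use in the counting is not given in the sources used here. The table held 39109 entries, from which the 92 ERCC spike-ins, 6152 genes spanning no more than 250 nt and 2 mitochondrial rRNA genes were dropped. A gene was tested where all libraries of 1 or more of the compared groups had a count of 6 or above. The test was run with edgeR 4.0.16 (older quasi-likelihood F test, robust, TMM), with 9 surrogate variables from svaseq (sva 3.50.0), in R 4.3.3, with all 35 libraries sharing 1 estimate of the spread. The sex comparison used group and sex without surrogate variables. Adjusted p-values are Benjamini-Hochberg values over all genes tested, at a threshold of 0.05. The code was tested on simulated data.

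The 31 members and the other lists were chosen with earlier results of these data known. All members could be named. Those past the threshold, and the largest rise and fall, were given in every group, as were up to 4 rises and 4 falls per comparison from the other lists. Alternatives changed the covariates, normalisation (RLE or library totals), count filter, test (DESeq2 1.42.0 or edgeR's newer method) and libraries in the fit. Leaving out the 2 libraries low in long genes, and the library highest in cortical genes, were added after seeing the data. Correlations used log2 CPM with group means removed. Exon lengths came from GENCODE and upstream sequences from RefSeq (GRCm38.p6). No pair of libraries within a group agreed within sampling noise (lowest chi-square per degree of freedom 7.96 over 15000 genes).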

Additional observations from a re-analysis of the deposited data

Results flagged for a closer look

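In 14 of 93 combinations of a gene and a group of 7 to 9 libraries, 1 library lay further from the others than Dixon's 95% limit allows, and chance alone gives about 1 in 20. The genes are not independent, since many vary together. Slc1a2 was lowest in Htt+/+ Hdac2 KO replicate 1, at 375 CPM against 521 in the next library. In Htt+/+ Hdac2 KO replicate 9, Glul was highest at 2083 CPM (next 1733) and Gjb6 at 53.9 CPM (next 37.1). In Htt+/+ Hdac2 WT replicate 9, Aldoc (1017 CPM, next 792), Ntsr2 (103, next 85.1) and Gpr37l1 (238, next 205) were highest together. In HttQ111/+ Hdac2 WT replicate 7, Slc25a18 was highest at 13.5 CPM (next 7.21) and S100b at 187 CPM (next 161), in the library that was also highest in cortical genes (488 CPM). Slc25a18 also stood out in Htt+/+ Hdac2 WT replicate 2, at 11.9 CPM (next 6.21). In HttQ111/+ Hdac2 WT, Gja1 reached 236 CPM in replicate 1 (next 192) and Gfap 78.7 CPM in replicate 5 (next 64.8). In Htt+/+ Hdac2 WT replicate 8, Bmpr1b was lowest at 32.5 CPM (next 36.7) and Plcd4 highest at 22.7 CPM (next 19.1). Plcd4 was also highest in Htt+/+ Hdac2 KO replicate 8, at 25.5 CPM (next 18.6).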

How the results depend on the processing

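Of the calls, that of Slc7a10 depended least on the processing: it kept its direction and passed under 12 of 13 alternatives in each single Hdac2 contrast and under 11 of 12 in the average. Atp1b2 passed under 11, 9 and 11 of these, Slc1a2 under 4, 5 and 6, Slc4a4 in the average under 8 of 12, and Aqp4 under 8 of 13 in Hdac2 WT mice and 8 of 12 in the average. In Htt+/+ mice the number of members called with Hdac2 KO was 7 without surrogate variables and with sex, the ID series or a replicate block in their place (21.8% to 25.4% of all genes), 1 with extraction date (4.80%), and 11 with only the libraries of the 2 groups (29.7%). In HttQ111/+ mice it was 0 with extraction date (1.93%), 1 with the replicate block (10.8%) and 7 with only the 2 groups (18.7%). In the average it was 11 without surrogate variables and with sex or the replicate block (30.4% to 32.1%), 10 with the ID series (31.6%) and 0 with extraction date (4.62%). With the HttQ111 allele it was 0 in Hdac2 WT mice and in the average without surrogate variables and with sex, extraction date or the replicate block, and 0 in Hdac2 WT mice with only the 2 groups. With extraction date Slc1a2 turned to 0.061, 0.077 and 0.071 in the first and second Hdac2 contrasts and the average, and Slc4a4 to 0.031 in the average. Extraction date nearly follows Hdac2 genotype, and the cause of these shifts was not tested. Replicate numbers did not pair the libraries: 45 same-numbered pairs correlated from −0.38 to 0.55, with 19 over 0.1, and 5 of 35 libraries correlated best with their own number. Depth did not remove a member from any comparison, and the spread between mice set the errors.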
